A study of Mus musculus with 12 samples.

Results

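The genes examined here encode the translation initiation factors, the proteins that bring the small ribosomal subunit, the initiator Met-tRNA and the start codon of an mRNA together. They were chosen by name from a table of counts per gene, measured by RNA-seq in dendritic cells (DCs) grown from mouse bone marrow. A gene was a member when its symbol began with *Eif* and a digit from 1 to 6, when it was neither an *Eif2ak* kinase nor a numbered pseudogene (a symbol with "-ps"), and when every library held at least 10 counts. Of 55471 genes, 85 matched the name pattern, 4 were left out as *Eif2ak*, 10 as pseudogenes and 22 for low counts, which left 49 members. All 49 also passed the separate filter on low counts that preceded the statistical test. Nearest to the limit on the inside were *Eif4ebp3* with 26 to 57 counts, *Eif3j2* with 39 to 135 and *Eif2b3* with 130 to 769 per library. Nearest on the outside were *Eif1ad7* and *Eif1ad8*, each with at most 9 counts in a library, and *Eif2s3y*, a gene on the Y chromosome, was at 0 in all 12 libraries.

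The DCs were grown with GM-CSF from the bone marrow of female C57BL/6 mice. All cells were transduced with a retroviral vector that carries a human CD8 reporter, and transduced cells were enriched on that reporter. In shControl cells the short hairpin RNA (shRNA) targets firefly luciferase, which mouse cells lack. In sh*Ppargc1b* cells it targets the mRNA of PGC-1β, a transcriptional co-activator. Each cell type was left unstimulated or was treated with IFN-β for 6 h, giving 4 groups of 3 libraries: shControl unstimulated, sh*Ppargc1b* unstimulated, shControl IFN-β and sh*Ppargc1b* IFN-β. The labels do not say whether libraries of a group came from separate cultures or animals, so p-values measure the spread between these libraries, which may be technical. The methods of the study use 1 of its hairpins for most experiments, so the knockdown here may rest on a single hairpin.

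As background, initiation proceeds in ordered steps. The GTPase eIF2 carries the initiator Met-tRNA, and eIF2B recharges eIF2 with GTP after each round. The multi-subunit eIF3 binds the small ribosomal subunit and keeps it open to mRNA, while eIF1, eIF1A and eIF5 control which codon is taken as the start. At the other end of the mRNA, eIF4E holds the cap, eIF4G is the scaffold, and the helicase eIF4A with eIF4B and eIF4H unwinds the leader. The 4E-binding proteins compete with eIF4G for eIF4E. Interferons are known to restrain translation, in part through the kinase PKR, which phosphorylates the α subunit of eIF2.

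Libraries held between 49919648 and 77726101 counts. Levels are given as CPM, counts per 1e+06 counts of the library, after TMM scaling (edgeR's trimmed mean of log ratios), whose factors were 1.07 to 1.09 in unstimulated libraries and 0.914 to 0.941 with IFN-β. *Ppargc1b* was at 56.3% of the shControl level without IFN-β (adjusted p = 3.25e-05) and at 67.2% with it (adjusted p = 9.45e-04). All 8 of 8 interferon-stimulated genes used as a check rose with IFN-β in both cell types. Without IFN-β 5 of the 8 were higher in sh*Ppargc1b* than in shControl cells (median log2 fold change 0.49), against 12.4% of all genes. Their rise with IFN-β was smaller in sh*Ppargc1b* cells (median difference −0.59), and that difference was called for 2 of them. The 9 markers of dendritic cells summed to between 3948 and 5506 CPM in every library, and those of lymphocytes and erythroid cells to at most 0.947 and 0.311 CPM. Most of the dendritic sum came from *Cd74*, *Itgax* and *H2-Ab1* (means of 2086, 949 and 600 CPM in shControl unstimulated cells). *Flt3* was at 1.94 and *Cd209a* at 0.109 CPM there. Macrophage markers summed to between 1095 and 1986 CPM. Genes of proliferation summed to between 237 and 417 CPM. No marker list had a gene at 0 in every library.

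The start of the mRNA is shown for a few members, because mRNAs of the translation machinery often begin with a C followed by a run of pyrimidines, the 5′ terminal oligopyrimidine (TOP) motif through which the RNA-binding protein LARP1 acts. Of the 49 members, 38 matched a RefSeq promoter record on GRCm38.p6 and 11 did not. A C within 2 bases of the annotated start followed by at least 4 pyrimidines was found in 7 of the 38 (18.4%), against 10.6% of all 27025 promoters. Those 7 were *Eif1ad*, *Eif2b5*, *Eif2s3x*, *Eif3b*, *Eif3f*, *Eif3l* and *Eif4g1*. The windows below run from 10 bases before the annotated start, 5′ to 3′ on the gene's strand, and capitals mark the C with its pyrimidine run. They show 2 members with a long run and *Eif3l*, which had one of the largest responses to IFN-β.
Eif2s3x: gagcattttcCTTTTCTCTCCgagcaagat
Eif3f: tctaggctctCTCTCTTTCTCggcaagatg
Eif3l: gagttcttCTTCCgctctctcccacgggct
These lie at chrX:94212632-94212661 on the minus strand, chr7:108934405-108934434 on the plus strand and chr15:79075213-79075242 on the plus strand. The 3 runs are 11, 11 and 5 bases long. *Eif3l* and *Eif2s3x* fell with IFN-β, and *Eif3f* had lower means without passing the test. Of the 7, *Eif2b5*, *Eif3b* and *Eif4g1* were also lower in both cell types and *Eif1ad* in shControl cells. Over all 49 members, 21 were lower in both.

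The promoters (250 bases before to 50 after the start) were also searched on both strands for the core of the interferon-stimulated response element (GAAA and GAAA with any 2 bases between them), since IFN-β was the treatment. It was found in 3 of 38 members (7.89%) and in 3.99% of all promoters. In the windows below capitals mark the 10 bases of the match, which is the reverse complement of the motif in *Eif2s3x* and *Eif3a*.
Eif2s1: cctggagcaaGAAACAGAAActtacctctc
Eif2s3x: tgccgagcatTTTCCTTTTCtctccgagca
Eif3a: agaccgcaaaTTTCCCTTTCccactctgtg
The windows are chr12:78861850-78861879 (plus strand), chrX:94212636-94212665 (minus) and chr19:60790885-60790914 (minus). In *Eif2s3x* the match overlaps the pyrimidine run shown above. None of the 3 genes rose with IFN-β: *Eif2s3x* and *Eif3a* were lower in both cell types and *Eif2s1* was lower in sh*Ppargc1b* cells.

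Other short motifs were counted in the same promoters. The ETS-family core CCGGAAG was present in 15 of 38 members (39.5%) and 9.93% of all promoters, the E-box CACGTG in 10 (26.3%) and 8.09%, and the core bound by nuclear respiratory factor 1 (GCGCA and GCGC with any 1 base between them) in 7 (18.4%) and 5.19%. The element AAGGTCA, bound by oestrogen-related receptors, which are partners of PGC-1β, was in 0 members and 5.38% of promoters. The ATF4 composite element TGATGNAA was in *Eif2s3x* alone among members and in 4.51% of promoters. A match is only a match of letters in this window. The promoters of all genes, here and above, include genes too low in counts to be tested, while every member passed a limit on counts. The shares compared are thus not matched for expression.

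Per kilobase of annotated exon, mean levels over all 12 libraries spanned from 104 CPM per kilobase for *Eif5a* to 0.537 for *Eif3j2*. After *Eif5a*, which helps ribosomes past difficult peptide bonds, came *Eif4g2* (73.7), a relative of eIF4G that lacks the eIF4E-binding site, *Eif4a1* (60.6), *Eif3h* (58.1) and *Eif1* (58.0). The subunits of eIF2B were low, with *Eif2b2* at 9.14, *Eif2b5* at 8.90, *Eif2b1* at 5.31, *Eif2b4* at 1.96 and *Eif2b3* at 0.994 CPM per kilobase. Their substrate eIF2 was at 17.9 (*Eif2s1*), 8.54 (*Eif2s3x*) and 8.35 (*Eif2s2*). Within eIF3 the levels ran from 58.1 for *Eif3h* to 0.537 for *Eif3j2*, although the subunits meet in 1 complex. Among the isoforms, *Eif5a2* was at 0.848 and *Eif4ebp3* at 0.909, far below *Eif5a* and *Eif4ebp1* (22.1). Lengths are unions of all annotated exons, so a gene with long minor isoforms is understated.

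**Figure D1:**
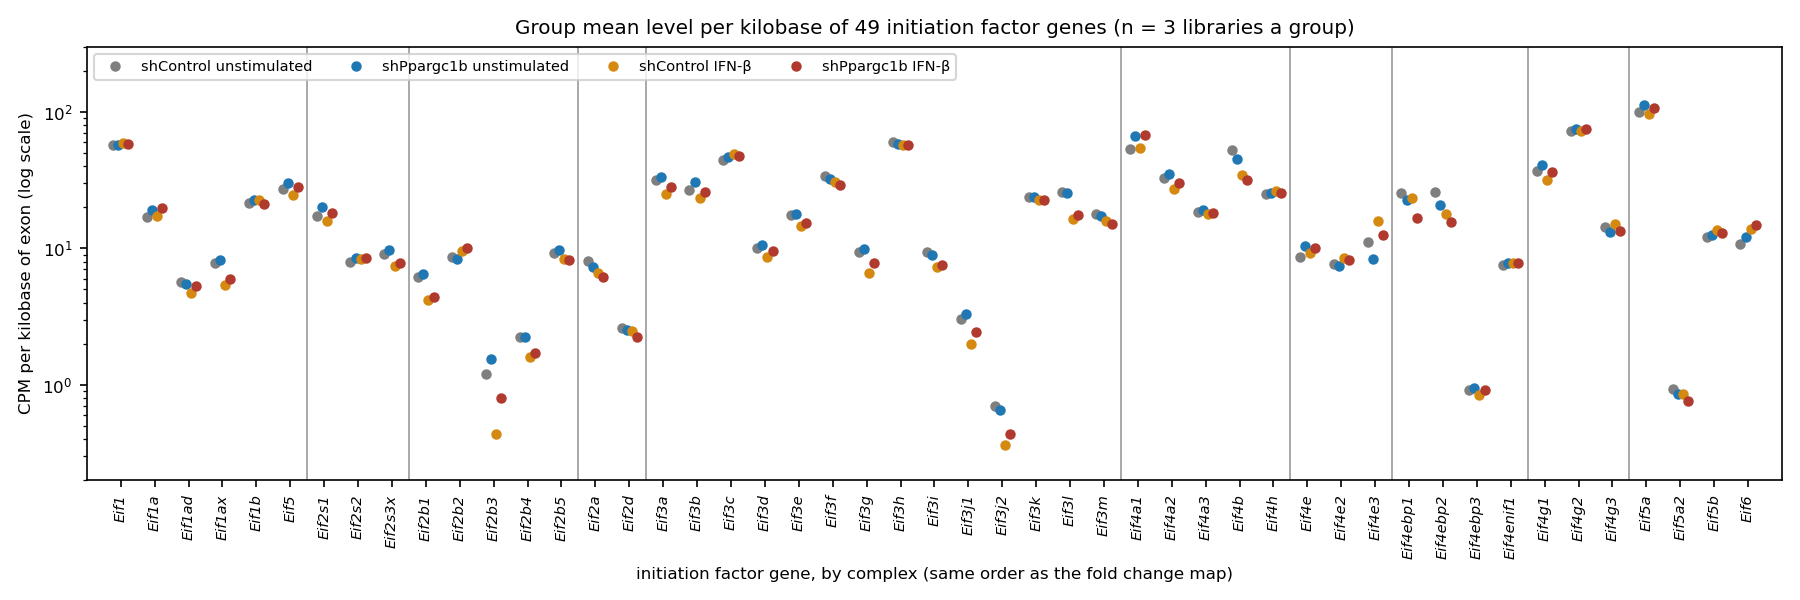
Mean level of each of the 49 members in CPM per kilobase of annotated exon (log axis) in the 4 groups, with 3 libraries a group; genes are ordered by complex, with grey lines between complexes. *Eif5a* is the highest at 104 over all libraries and *Eif3j2* the lowest at 0.537, and for most genes the 4 groups lie close together on this scale.

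IFN-β lowered the mRNAs of most subunits of eIF3 and eIF2B, of the helicase cofactor *Eif4b* and of the eIF1A gene *Eif1ax*, and raised *Eif4e3* and *Eif6*. In shControl cells 23 of 49 members were lower and 5 higher at an adjusted p under 0.05, against 24.6% lower and 23.7% higher among the 18228 genes tested. In sh*Ppargc1b* cells 24 were lower and 4 higher, against 21.2% and 21.4%. Of the members, 46.9% and 48.98% were thus lower and 10.2% and 8.16% higher. The median log2 fold change of the members was −0.14 in shControl and −0.15 in sh*Ppargc1b* cells, beside −0.03 and −0.02 over all genes tested. The comparisons in the 2 cell types share no library: 21 members were lower in both and 3 (*Eif4e2*, *Eif4e3* and *Eif6*) higher in both. In bulk RNA, fewer cells of a type and less RNA per cell cannot be told apart. Of 8 macrophage markers, 4 rose with IFN-β in both cell types, and the list summed to 1359 to 1443 CPM without and 1868 to 1986 CPM with IFN-β in shControl libraries. The part of this shift in the members' values was not tested.

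The size of these shifts depended on the scaling. Members took 0.501% to 0.527% of raw counts in shControl unstimulated libraries and 0.394% to 0.401% with IFN-β. The corresponding ranges in sh*Ppargc1b* cells were 0.501% to 0.536% and 0.416% to 0.428%. With library totals in place of TMM the median of all genes moved to −0.27 and −0.22, and 42 and 44 members were then lower and 1 higher in each cell type, against 45.5% and 41.4% of all genes lower and 14.3% and 12.8% higher. Relative to the median of all genes the members' median was −0.11 in shControl and −0.13 in sh*Ppargc1b* cells. A change of scaling moves the values of all genes together. This difference is therefore nearly the same under any scaling and is no separate check. In shControl cells the calls of *Eif1ad*, *Eif2b5*, *Eif3m* and *Eif5* were each lost on leaving out at least 1 library, as were those of *Eif2d*, *Eif2s1*, *Eif3d* and *Eif3j2* in sh*Ppargc1b* cells. Of the rises, *Eif4e3* alone remained past the threshold with library totals.

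**Figure D2:**
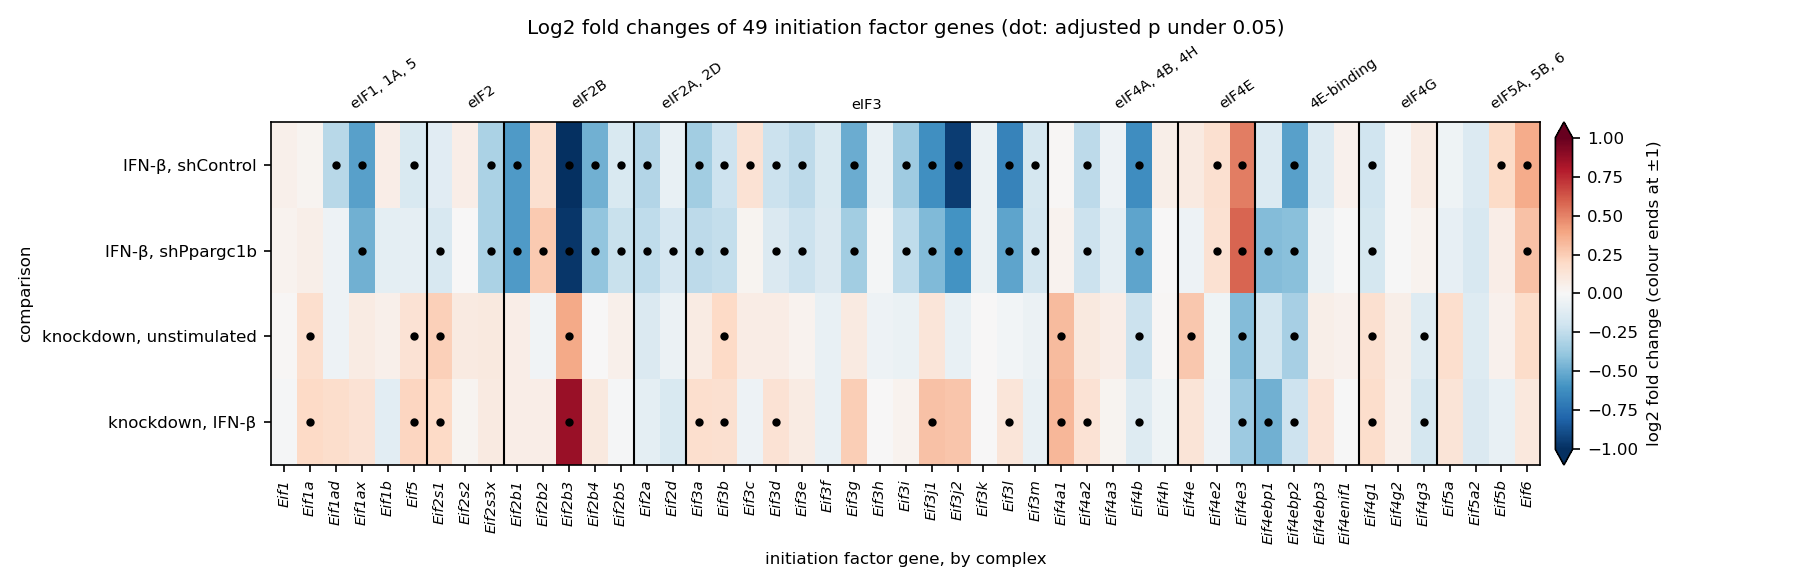
Log2 fold change (colour, limited to ±1) of each of the 49 members (columns, grouped by complex) in the 4 comparisons (rows); a black dot marks an adjusted p under 0.05 (edgeR, 3 libraries a group). Blue fills most of eIF3 and eIF2B in the IFN-β rows, where 23 and 24 members were lower (42 and 44 with library totals, under which *Eif3c*, *Eif4e2* and *Eif5b* also change sign); in the knockdown rows red and blue both appear, with 8 and 12 members higher and 4 and 5 lower.

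The largest change was in the exchange factor eIF2B, in which 4 of 5 subunits were lower in both cell types. *Eif2b3* (4:117019402-117087306, plus strand, GRCm38) encodes the γ subunit. It was at 7.17, 7.40 and 8.76 CPM in shControl unstimulated libraries and at 2.81, 3.10 and 2.64 CPM with IFN-β. sh*Ppargc1b* libraries held 8.65, 11.1 and 10.6 CPM unstimulated and at 5.23, 5.10 and 5.17 CPM with IFN-β. Every IFN-β library was below every unstimulated library. The difference on the log2 scale was −1.45 (SE 0.12, adjusted p = 4.32e-08) in shControl and −0.97 (SE 0.11, adjusted p = 2.87e-06) in sh*Ppargc1b* cells.

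*Eif2b1*, the regulatory α subunit, fell by 0.57 on the log2 scale in both cell types (SE 0.08, adjusted p = 1.53e-05 and 1.81e-05). *Eif2b4* (δ) changed by −0.48 and −0.39, and *Eif2b5*, the catalytic ε subunit, by −0.15 and −0.22. *Eif2b2* (β) went the other way, with a log2 fold change of 0.16 that did not pass in shControl cells (adjusted p = 0.0728) and 0.26 (SE 0.07, adjusted p = 0.00572) in sh*Ppargc1b* cells, which became 0.06 (adjusted p = 0.514) with library totals. Of eIF2 itself, the γ subunit gene *Eif2s3x* was lower in both cell types (−0.31 and −0.32, SE 0.07, adjusted p = 0.00105 and 0.00103). The α subunit gene *Eif2s1* passed in sh*Ppargc1b* cells (−0.16, adjusted p = 0.0215) and not in shControl cells (−0.11, adjusted p = 0.0823), and *Eif2s2* (β) passed in neither (0.07 and 0.01). Of the 100-base sequences of *Eif2s3x*, 33.7% are shared with *Gm2223*, so its counts are less certain. Of the alternative Met-tRNA carriers, *Eif2a* was lower in both (−0.29 and −0.25, SE 0.06, adjusted p = 9.70e-04 and 0.00382) and *Eif2d* in sh*Ppargc1b* cells (−0.16, adjusted p = 0.0411).

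In eIF3, 10 of 14 genes were lower in each cell type and the same 10 were lower in both: *Eif3a*, *Eif3b*, *Eif3d*, *Eif3e*, *Eif3g*, *Eif3i*, *Eif3j1*, *Eif3j2*, *Eif3l* and *Eif3m*. Summed over the 14 genes, eIF3 was at 1163 ± 39.1 CPM (SD, n = 3) without and 1004 ± 19.5 with IFN-β in shControl cells, and at 1196 ± 27.4 and 1050 ± 36.8 CPM in sh*Ppargc1b* cells. *Eif3l* (15:79075179-79094405, plus strand) encodes a peripheral subunit that pairs with eIF3k. It was at 90.9, 95.2 and 96.7 CPM in shControl unstimulated libraries and at 59.2, 58.2 and 60.5 CPM with IFN-β. The sh*Ppargc1b* libraries were at 90.9, 92.5 and 94.4 CPM and, with IFN-β, at 63.7, 63.6 and 65.7 CPM. No IFN-β library reached an unstimulated one, and the log2 fold changes were −0.67 (SE 0.04, adjusted p = 6.81e-10) and −0.53 (SE 0.04, adjusted p = 1.68e-08).

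*Eif3j1*, whose product sits loosely on the complex near the decoding site, was at 17.5 to 18.1 CPM without and 10.4 to 12.3 CPM with IFN-β in shControl cells (−0.61, SE 0.07, adjusted p = 2.33e-06), and its log2 fold change in sh*Ppargc1b* cells was −0.44. Its near-copy *Eif3j2* was at 1.51 to 1.95 CPM without and 0.842 to 0.870 with IFN-β in shControl cells (−0.95, SE 0.20, adjusted p = 0.00104). For *Eif3j2* in sh*Ppargc1b* cells the value was −0.60 (adjusted p = 0.0229), a call that was lost without sh*Ppargc1b* unstimulated 2 or 3 or sh*Ppargc1b* IFN-β 3. Since 84.0% of the 100-base sequences of *Eif3j2* also occur in *Eif3j1*, reads of this pair cannot be fully separated and *Eif3j2* is uncertain. Smaller changes were those of *Eif3a*, the largest subunit (−0.35 and −0.27), *Eif3b* (−0.20 and −0.24) and the cap-binding subunit *Eif3d* (−0.22 and −0.14). For *Eif3d*, 43.3% of the exon sequence is overlapped on the other strand by *Gm17638*, and no source used here states whether the counting used strand.

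The 4 other eIF3 genes were not called lower. *Eif3h* (−0.08 and −0.02), *Eif3k* (−0.07 and −0.07) and *Eif3f* (−0.15 and −0.15, adjusted p = 0.0639 and 0.0713) did not pass. *Eif3c*, a core subunit, was at 153 to 158 CPM without and 171 to 174 CPM with IFN-β in shControl cells (0.15, SE 0.03, adjusted p = 0.00219), while its log2 fold change was 0.02 in sh*Ppargc1b* cells. With library totals the shControl value turned to −0.09 (adjusted p = 0.0380).

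Of the factors that select the start codon, *Eif1ax* (X:159372178-159389928, plus strand), 1 of 2 mouse genes for eIF1A, changed most. It was at 42.9, 39.7 and 40.6 CPM in shControl unstimulated libraries and at 28.7, 28.1 and 27.8 CPM with IFN-β. The sh*Ppargc1b* values were 40.0, 47.0 and 43.3 CPM and 29.4, 32.3 and 31.8 CPM with IFN-β. No values of the compared groups overlapped, with log2 fold changes of −0.54 (SE 0.06, adjusted p = 1.75e-06) and −0.48 (SE 0.06, adjusted p = 8.45e-06). The other eIF1A gene, *Eif1a*, did not pass (0.03 and 0.06). *Eif5*, the GTPase-activating partner of eIF2, was lower in shControl cells (−0.15, adjusted p = 0.0171) and at −0.09 in sh*Ppargc1b* cells, where it did not pass. *Eif1ad*, which encodes a protein with an eIF1A-like domain, was lower in shControl cells (−0.28, adjusted p = 0.0255) and not called in sh*Ppargc1b* cells (−0.05). *Eif1* and *Eif1b*, the genes for eIF1, passed in neither (0.05 and 0.03 for *Eif1*, 0.06 and −0.10 for *Eif1b*).

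On the cap side, *Eif4b* (15:102073773-102097173, plus strand), the cofactor that stimulates the helicase eIF4A, stood out. It was at 243, 229 and 235 CPM in shControl unstimulated libraries and at 153, 154 and 153 CPM with IFN-β. The corresponding sh*Ppargc1b* values were 204, 197 and 207 CPM and, with IFN-β, 144, 138 and 140 CPM. The IFN-β libraries lay well below the unstimulated ones, and *Eif4b* fell by 34.9% (log2 fold change −0.62, SE 0.04, adjusted p = 9.85e-10) and by 30.7% (−0.53, SE 0.04, adjusted p = 9.20e-09). The helicase genes behaved differently: *Eif4a2* was lower (−0.27 and −0.22), whereas *Eif4a1* (0.01 and 0.03), *Eif4a3*, part of the exon junction complex (−0.05 and −0.09), and *Eif4h* did not pass.

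None of the 3 cap-binding genes was called lower, and their sum was 137 ± 3.28 CPM without and 160 ± 2.69 CPM with IFN-β in shControl cells. *Eif4e3* (6:99625135-99666771, minus strand), an atypical cap-binding protein, was at 27.1, 27.8 and 29.6 CPM in shControl unstimulated libraries and at 39.1, 41.8 and 39.8 CPM with IFN-β. Levels in sh*Ppargc1b* cells were 20.8, 20.6 and 21.3 CPM and 31.8, 31.9 and 30.2 CPM with IFN-β. All IFN-β values exceeded all unstimulated ones, with log2 fold changes of 0.51 (SE 0.05, adjusted p = 4.52e-07) and 0.58 (SE 0.05, adjusted p = 1.63e-07). *Gm20696* overlaps 14.8% of its exon sequence on the same strand. *Eif4e2*, a cap-binding protein that represses translation, was higher by 0.16 and 0.15 (SE 0.04, adjusted p = 0.00442 and 0.00927), and turned to −0.08 and −0.05 with library totals (adjusted p = 0.127 and 0.293). *Eif4e* itself did not pass (0.09 and −0.05).

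**Figure D3:**
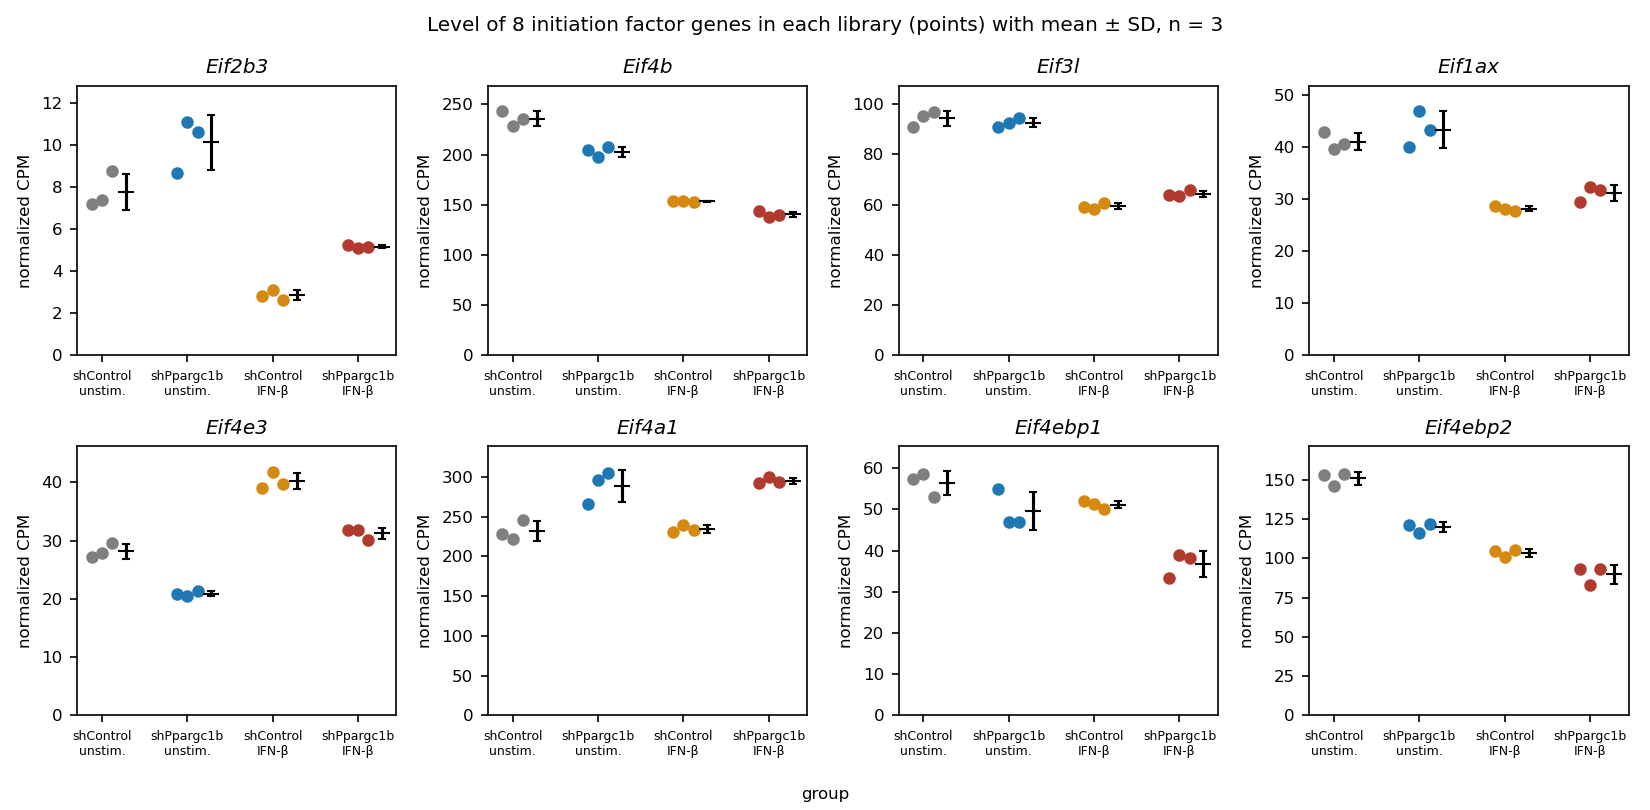
Normalized CPM of 8 members in each of the 12 libraries (coloured points), with the mean ± SD of each group (n = 3) to the right of the points; the vertical axes start at 0. *Eif2b3*, *Eif4b*, *Eif3l* and *Eif1ax* are lower with IFN-β in both cell types and *Eif4e3* is higher, while *Eif4a1* is higher and *Eif4e3*, *Eif4b* and *Eif4ebp2* are lower in sh*Ppargc1b* than in shControl cells of the same treatment.

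Of the proteins that bind eIF4E, *Eif4ebp2* fell in both cell types. It was at 153, 146 and 154 CPM in shControl unstimulated libraries and at 105, 101 and 105 CPM with IFN-β (−0.54, SE 0.05, adjusted p = 1.14e-07), and its log2 fold change in sh*Ppargc1b* cells was −0.42 (SE 0.05, adjusted p = 3.34e-06). *Eif4ebp1* passed in sh*Ppargc1b* cells (−0.43, SE 0.07, adjusted p = 1.13e-04) and not in shControl cells (−0.14, adjusted p = 0.110). *Eif4ebp3*, 67.3% of which is overlapped on the same strand by another annotated gene, and *Eif4enif1*, the eIF4E transporter, did not pass. Of the scaffolds, *Eif4g1* was lower (−0.20 and −0.18, SE 0.05, adjusted p = 0.00235 and 0.00598), and *Eif4g2* (0.00 and −0.01) and *Eif4g3* (0.08 and 0.03) did not pass.

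Among the late factors, *Eif6*, which keeps the large subunit from joining too early, was at 26.6, 28.4 and 32.2 CPM in shControl unstimulated libraries and at 38.1, 39.5 and 35.3 CPM with IFN-β. For sh*Ppargc1b* cells the values were 31.8, 33.1 and 33.8 CPM and 40.1, 40.5 and 40.6 CPM with IFN-β. The IFN-β values were all above the unstimulated ones, and the log2 fold changes were 0.37 (SE 0.06, adjusted p = 1.67e-04) and 0.30 (SE 0.06, adjusted p = 0.00133). With library totals they were 0.13 (adjusted p = 0.0980) and 0.09 (adjusted p = 0.249). *Eif5b*, the GTPase of subunit joining, was higher in shControl cells (0.19, SE 0.04, adjusted p = 7.47e-04), turned to −0.05 with library totals (adjusted p = 0.267) and did not pass in sh*Ppargc1b* cells (0.07). *Eif5a* (−0.05 and −0.08) and *Eif5a2* (−0.14 and −0.16) did not pass.

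The knockdown of *Ppargc1b* raised the helicase gene *Eif4a1*, the eIF2 gene *Eif2s1* and the eIF2B gene *Eif2b3*, and lowered *Eif4e3*, *Eif4ebp2*, *Eif4b* and *Eif4g3*, with and without IFN-β. Without IFN-β 8 of 49 members were higher and 4 lower in sh*Ppargc1b* than in shControl cells (16.3% and 8.16%), against 12.4% and 11.1% of the genes tested. With IFN-β 12 were higher and 5 lower (24.5% and 10.2%), against 11.5% and 12.7%. The shares of lower members were thus slightly under the background, and that of higher members with IFN-β was above it. The median log2 fold change of the members was 0.05 and 0.06, beside 0.00 and −0.01 over all genes. These comparisons share no library with each other, but come from the same model: 7 members were higher in both (*Eif1a*, *Eif2b3*, *Eif2s1*, *Eif3b*, *Eif4a1*, *Eif4g1* and *Eif5*) and 4 lower in both. The share of all genes called in both was not computed. Each knockdown comparison does share libraries with the IFN-β comparisons above.

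The count of higher members changed with the libraries included, and so did the share of all genes called. Without IFN-β it dropped from 8 to 4 when shControl unstimulated 1, shControl unstimulated 2, sh*Ppargc1b* unstimulated 2 or sh*Ppargc1b* unstimulated 3 was left out, while the share of all genes called higher went from 12.4% to between 9.53% and 9.98%. With IFN-β it dropped from 12 to 5 without shControl IFN-β 1 or sh*Ppargc1b* IFN-β 1, to 6 without shControl IFN-β 3 and to 7 without sh*Ppargc1b* IFN-β 3, while that of all genes went from 11.5% to between 8.11% and 8.85%. The calls that held whichever 1 of the 12 libraries was left out were *Eif2s1*, *Eif3b*, *Eif4a1*, *Eif4e*, *Eif4b*, *Eif4e3*, *Eif4ebp2* and *Eif4g3* without IFN-β. With IFN-β they were *Eif2b3*, *Eif3j1*, *Eif4a1*, *Eif5*, *Eif4e3*, *Eif4ebp1*, *Eif4ebp2* and *Eif4g3*. Markers of cell types also moved with the knockdown: 4 of 8 dendritic markers tested were higher and 3 of 8 macrophage markers lower in each treatment. Of 7 proliferation genes 1 was higher and 1 lower without IFN-β and none passed with it. Without IFN-β they summed to 321 to 417 CPM in shControl and 249 to 355 CPM in sh*Ppargc1b* libraries. In unstimulated cells the summed macrophage list was at 1359 to 1443 CPM in shControl and 1095 to 1162 CPM in sh*Ppargc1b* libraries, the neutrophil list at 35.6 to 73.9 and 73.4 to 126 CPM, and the mast cell or basophil list at 8.71 to 16.8 and 22.1 to 25.7 CPM. Of the macrophage markers *Mrc1* moved most, from a mean of 307 to 107 CPM without IFN-β, while *Cd68* (458 and 456 CPM) and *C1qa* (95.6 and 95.7 CPM) did not pass. Only 1 of 7 neutrophil markers passed, *S100a8* (34.5 and 61.3 CPM), and *Mpo* and *Elane* had lower means. Of 6 mast cell or basophil markers tested 2 passed, *Kit* (7.54 and 14.3 CPM) and *Gata2* (1.87 and 5.84 CPM). With IFN-β the corresponding ranges of the macrophage, neutrophil and mast cell or basophil lists were 1868 to 1986 and 1552 to 1637 CPM, 31.3 to 76.0 and 66.7 to 121 CPM, and 7.64 to 14.9 and 12.8 to 21.2 CPM. The part of these shifts in the results on initiation factors was not tested.

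*Eif4a1* (11:69666936-69672423, minus strand), the main helicase gene, was at 228, 222 and 246 CPM in shControl and at 265, 296 and 304 CPM in sh*Ppargc1b* unstimulated libraries. With IFN-β it was at 230.2, 239 and 233 CPM in shControl and at 293, 299 and 294 CPM in sh*Ppargc1b* cells. All 6 sh*Ppargc1b* values exceeded all 6 shControl values, with log2 fold changes of 0.31 (SE 0.05, adjusted p = 2.71e-04) and 0.33 (SE 0.05, adjusted p = 1.79e-04). Of its 100-base sequences, 22.6% occur elsewhere, among others in the pseudogene *Eif4a-ps4*, which held 159 to 303 counts per library. *Eif4a2* was higher with IFN-β (0.14, adjusted p = 0.0339), where the groups overlapped, and was at 0.10 without it.

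*Eif2b3* was higher by 0.38 without IFN-β (SE 0.11, adjusted p = 0.0155), where the groups overlapped, and by 0.86 with it (SE 0.12, adjusted p = 7.69e-05), where the lowest sh*Ppargc1b* value, 5.10 CPM, lay above the highest shControl value, 3.10 CPM. The call without IFN-β was lost on leaving out any 1 of the 4 unstimulated libraries named above, with adjusted p between 0.0592 and 0.0809. *Eif2s1* (12:78861819-78887010, plus strand) was at 82.2, 86.1 and 86.3 CPM in shControl and at 94.4, 108 and 98.2 CPM in sh*Ppargc1b* unstimulated libraries. With IFN-β it was at 74.2, 82.4 and 78.5 CPM and at 89.6, 89.9 and 90.5 CPM. The groups did not overlap, and the log2 fold changes were 0.24 (SE 0.05, adjusted p = 0.00260) and 0.20 (SE 0.05, adjusted p = 0.0104). The *Eif2s1* call with IFN-β was lost without shControl IFN-β 1 (0.15, adjusted p = 0.0706).

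Of the start-site factors, *Eif1a* was higher by 0.17 and 0.20 (SE 0.06, adjusted p = 0.0444 and 0.0168) and *Eif5* by 0.14 and 0.21 (SE 0.05, adjusted p = 0.0462 and 0.00535). The *Eif1a* call without IFN-β was lost in 9 of 18 settings, with adjusted p up to 0.223 (without sh*Ppargc1b* unstimulated 2). With IFN-β it was lost in 4. That of *Eif5* without IFN-β was lost on leaving out at least 1 library. In eIF3, *Eif3b* was the 1 gene that passed without IFN-β (0.20, SE 0.05, adjusted p = 0.00813). With IFN-β 5 of 14 passed, all of them higher: *Eif3j1* (0.29, SE 0.07, adjusted p = 0.00640), *Eif3a* (0.17), *Eif3b* (0.16), *Eif3d* (0.15) and *Eif3l* (0.12). The scaffold *Eif4g1* was higher by 0.16 and 0.18 (SE 0.05, adjusted p = 0.0210 and 0.0103), while *Eif4g3* changed by −0.13 and −0.17 (SE 0.03, adjusted p = 0.00810 and 9.15e-04). The *Eif4g1* call without IFN-β was lost in 4 settings that left out 1 unstimulated library (adjusted p between 0.0535 and 0.0957). With IFN-β it was lost without shControl IFN-β 1 (0.0510) or sh*Ppargc1b* IFN-β 1 (0.0676). The *Eif4g3* call without IFN-β was lost when no filter on low counts was used (−0.11, adjusted p = 0.248). No member among eIF5A, eIF5B and eIF6 passed, and *Eif6* came nearest with 0.18 (adjusted p = 0.0545) without IFN-β.

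The lower members were on the cap side, and the 4 genes of eIF4E-binding proteins summed to 256 ± 2.06 CPM in shControl and 220 ± 5.65 CPM in sh*Ppargc1b* unstimulated cells, and to 205 ± 0.811 and 177 ± 6.60 CPM with IFN-β. *Eif4e3* fell by 25.9% without IFN-β (log2 fold change −0.43, SE 0.05, adjusted p = 1.62e-05) and by 22.2% with it (−0.36, SE 0.05, adjusted p = 7.61e-05), and its levels in the 2 cell types did not overlap in either treatment. *Eif4e* was higher without IFN-β: it was at 49.2, 55.4 and 51.8 CPM in shControl and at 61.6, 63.4 and 63.8 CPM in sh*Ppargc1b* cells (0.27, SE 0.05, adjusted p = 0.00149). With IFN-β its value was 0.13 and did not pass (adjusted p = 0.0930). *Eif4ebp2* was at 121, 116 and 122 CPM in sh*Ppargc1b* unstimulated libraries, below the 146 to 154 CPM of shControl (−0.33, SE 0.05, adjusted p = 8.33e-05), and at 93.5, 82.8 and 93.1 CPM with IFN-β, below 101 to 105 CPM (−0.21, SE 0.05, adjusted p = 0.00471).

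*Eif4ebp1* (8:27260329-27276674, plus strand), the best known of the inhibitors of eIF4E and a target of mTOR, was at 57.4, 58.6 and 53.0 CPM in shControl and at 55.0, 46.9 and 46.9 CPM in sh*Ppargc1b* unstimulated libraries, which overlapped. With IFN-β it was at 52.0, 51.3 and 50.2 CPM in shControl and at 33.2, 38.9 and 38.1 CPM in sh*Ppargc1b* cells, with no overlap. The log2 fold changes were −0.19 (SE 0.07, adjusted p = 0.0641) and −0.48 (SE 0.07, adjusted p = 1.28e-04). *Eif4b* was lower in both treatments (−0.22 and −0.13, SE 0.04, adjusted p = 3.71e-04 and 0.0182). The call with IFN-β was lost in 4 settings with log2 fold changes between −0.10 and −0.12: library totals (adjusted p = 0.0564), no filter on low counts (0.165), only the compared groups (0.0537) and without shControl unstimulated 3 (0.0529).

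Whether the knockdown effect differed with IFN-β was tested as an interaction. No member passed in edgeR or DESeq2, against 0.0603% of all genes higher and 0.669% lower. The smallest adjusted p among members was 0.227. At an unadjusted p under 0.05 there were 5 members: *Eif2b3* (0.48, SE 0.16) and *Eif3l* (0.14) in the higher direction, and *Eif4ebp1* (−0.29, SE 0.10), *Eif3c* (−0.12) and *Eif5b* (−0.12) in the lower. Without a filter on low counts *Eif4ebp1* passed in the lower direction (−0.30, SE 0.08, adjusted p = 0.0359). Thus calls made in 1 treatment alone, such as those of *Eif4e* and *Eif4ebp1*, were not shown to differ between treatments in the main test.

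The balance between paralogs was expressed as the share of each in the summed CPM per kilobase of its family, which does not depend on the scaling between libraries. With 3 libraries against 3 the exact two-sided permutation test cannot give a p below 0.1. *Eif4e3* made up 40.8% ± 0.84 (SD, n = 3) of *Eif4e*, *Eif4e2* and *Eif4e3* in shControl unstimulated libraries and 31.7% ± 0.61 in sh*Ppargc1b*. With IFN-β it made up 47.3% ± 0.63 in shControl and 40.4% ± 1.03 in sh*Ppargc1b* cells. No overlap between the groups compared was seen in any of the 4 comparisons (exact permutation p = 0.1, the smallest possible). The shares of a family add up to a fixed whole, so a rise in 1 gene alone lowers the shares of the others. That of *Eif4e* was 31.5% ± 1.57 in shControl and 40.0% ± 0.12 in sh*Ppargc1b* cells without IFN-β, and 27.4% ± 0.80 and 32.9% ± 1.17 with it. *Eif4e* itself was not called in the IFN-β comparisons, so its lower share there does not show less *Eif4e* mRNA.

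*Eif4a1* made up 62.2% ± 1.65 and 65.6% ± 2.04 of *Eif4a1* and *Eif4a2* in unstimulated shControl and sh*Ppargc1b* cells, which overlapped, and 66.6% ± 0.70 and 69.5% ± 0.76 with IFN-β, which did not (exact permutation p = 0.2 and 0.1). *Eif4ebp1* made up 49.5% ± 1.85 and 52.1% ± 2.08 of *Eif4ebp1* and *Eif4ebp2* in shControl and sh*Ppargc1b* cells without IFN-β, which overlapped (exact permutation p = 0.2). With IFN-β it made up 56.5% ± 0.81 in shControl and 51.8% ± 3.46 in sh*Ppargc1b* cells, which did not overlap (exact permutation p = 0.1). *Eif4g1* made up 29.7% ± 0.40, 31.6% ± 0.57, 26.8% ± 0.52 and 29.0% ± 0.89 of the 3 eIF4G genes in shControl and sh*Ppargc1b* cells without and then with IFN-β. The share of *Eif1* in *Eif1* and *Eif1b* was between 71.8% and 73.7% in all 4 groups, and the groups overlapped in every comparison.

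**Figure D4:**
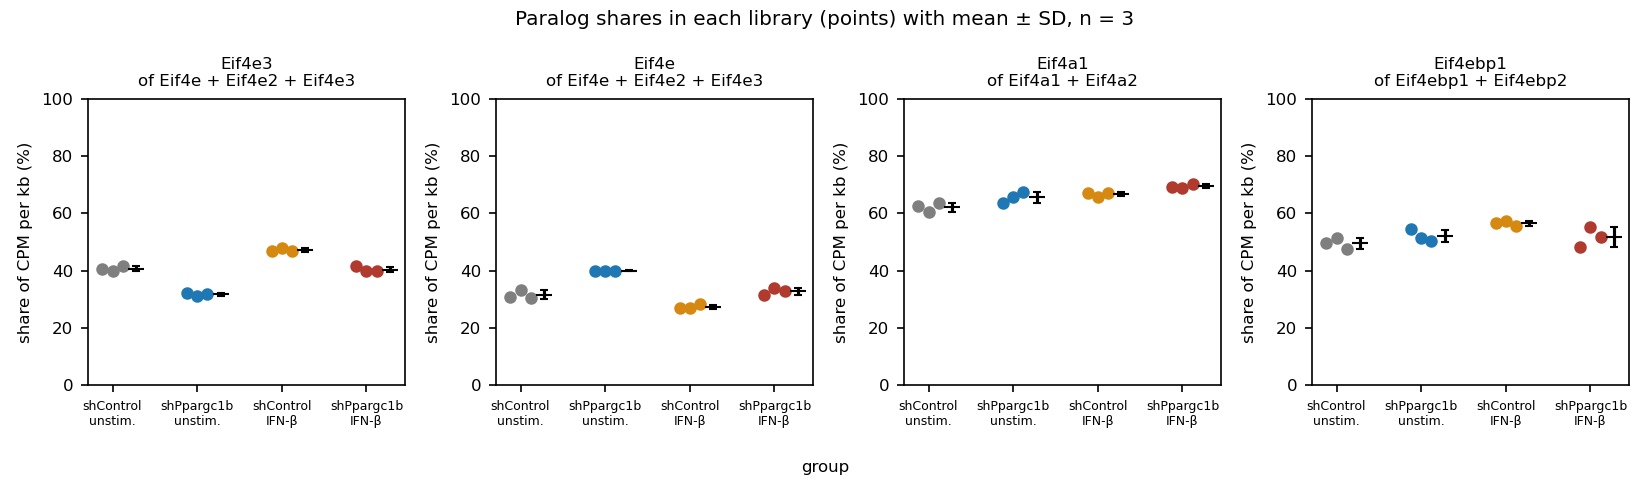
Share of a paralog in the summed CPM per kilobase of its family (vertical axis, 0 to 100%) in each library (points) with mean ± SD of each group (n = 3). *Eif4e3* is lowest in sh*Ppargc1b* unstimulated cells (31.7%) and highest in shControl cells with IFN-β (47.3%). *Eif4e* shows the opposite order, in part because the shares of a family add up to a fixed whole.

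Other genes of the pathway were taken from lists set by function. The α subunit of eIF2 is phosphorylated by 4 kinases, of which 1 rose and 1 fell with IFN-β in each cell type. *Eif2ak2*, the gene of PKR and itself interferon-stimulated, rose by 1.80 and 1.60 on the log2 scale (SE 0.04, adjusted p = 1.59e-14 and 9.06e-14), while *Eif2ak3*, the gene of the endoplasmic reticulum kinase PERK, changed by −0.52 and −0.31. Of the 5 genes of the phosphatase that reverses this mark, 4 rose and 1 fell in shControl and 3 rose and 1 fell in sh*Ppargc1b* cells. Its inducible targeting subunit *Ppp1r15a* changed by 0.64 and 0.41, and the constitutive *Ppp1r15b* by 0.56 and 0.48. In the knockdown 1 kinase and 1 phosphatase gene were lower without IFN-β and 2 of each with it.

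Among all genes, 24.6% were lower and 23.7% higher with IFN-β in shControl cells, and 21.2% and 21.4% in sh*Ppargc1b* cells. Of 14 partners on the cap and poly(A) side, 1 rose and 10 fell (71.4%) in shControl cells, and 1 rose and 8 fell (57.1%) in sh*Ppargc1b* cells. The one that rose was *Larp1* (0.78 and 0.63, SE 0.05), which binds TOP mRNAs. The poly(A)-binding protein gene *Pabpc4* changed by −1.26 and −0.94, and *Pdcd4*, an inhibitor of eIF4A, by −0.83 in shControl cells and, not past the threshold, −0.23 in sh*Ppargc1b* cells. Of 12 elongation and termination genes, 10 fell (83.3%) and 2 rose in shControl and 8 fell (66.7%) and 1 rose in sh*Ppargc1b* cells. *Eef2k*, the kinase that inhibits elongation factor 2, changed by −1.74 and −1.41 (SE 0.10), more than any initiation factor. Of 7 recycling and non-canonical factors, 4 fell (57.1%) and 1 rose in shControl and 4 fell in sh*Ppargc1b* cells, with the recycling factor *Abce1* at −0.99 and −0.80.

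In the knockdown, with 12.4% of all genes higher and 11.1% lower without IFN-β and 11.5% and 12.7% with it, the elongation and termination list had 4 of 12 higher (33.3%) and 1 lower without and 4 higher with IFN-β. The recycling list had 3 of 7 higher (42.9%) without and 4 (57.1%) with IFN-β. The cap and poly(A) list had 1 of 14 higher and 2 lower without and 3 higher and 1 lower with IFN-β. *Abce1* (0.26 and 0.45) and *Eef1e1* (0.39 and 0.70), which joins the tRNA synthetase complex, were higher in both treatments. No gene of any of these lists passed the interaction test in edgeR, and the smallest adjusted p was 0.0734, for *Pdcd4*.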

How the data were processed

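RNA-seq of 12 libraries, in 4 groups of 3, was analysed from the whole-number counts per gene that the authors deposited. Per the labels and the study's methods, ribosomal RNA was depleted, paired-end reads were trimmed with Trim Galore 0.6.0, and aligned and counted with STAR (2.7.8a in the labels, another version in the methods) on mm10 with GENCODE genes. The strand used in counting is not given in the sources used here.

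The counts were tested with edgeR 4.0.16 in R 4.3.3 (TMM factors, quasi-likelihood F-test, 1 model of the 4 groups over all libraries). The filter on low counts was filterByExpr (count 10, total 15), which kept 18228 genes. P-values are two-sided, had a Benjamini-Hochberg adjustment across those genes, and were called under 0.05. All p-values named adjusted come from this fit unless a setting is named. Paralog shares were compared with exact permutation tests. The fitting code was tested on simulated data. The members, complexes, marker and pathway lists, motifs and tests were chosen with earlier results of these data known. Any member could be named, and given in full were those with the largest called change in each complex and the 5 highest and 5 lowest of each comparison. Alternatives were library totals, RLE factors, no filter, a block of library codes, the compared groups alone, DESeq2 1.42.0 and leaving out each library. Gene positions and exon lengths are from a GENCODE annotation of GRCm38, and sequences from RefSeq on GRCm38.p6.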

Additional observations from a re-analysis of the deposited data

Results flagged for a closer look

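Genes left out for low counts held a signal outside the members. The 17 *Eif1ad* copies summed to 11, 18 and 6 counts in sh*Ppargc1b* unstimulated libraries and to 2, 0 and 2 in shControl ones. With IFN-β they summed to 17, 15 and 20 counts in sh*Ppargc1b* and to 4, 1 and 4 in shControl cells. The lowest sh*Ppargc1b* sums, 6 and 15, thus lay above the highest shControl sums of the same treatment. Most of these counts were in *Eif1ad7* and *Eif1ad8*. The comparison was chosen after the counts were seen and was not tested, and reads of copies this alike cannot be assigned with certainty.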

How the results depend on the processing

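The results on single members counted here are the 52 given in full, chosen for the largest called changes of each comparison. Of these, 36 kept their direction and their call under all 18 alternative settings. Of their 936 values 895 kept both, 37 lost the call and 4 reversed. Called members outside that choice are not in these counts. With library totals the members higher and lower with IFN-β numbered 1 and 42 in shControl and 1 and 44 in sh*Ppargc1b* cells. The 4 reversals came with that scaling: *Eif3c* (−0.092), *Eif4e2* (−0.077) and *Eif5b* (−0.052) in shControl and *Eif4e2* (−0.054) in sh*Ppargc1b* cells, as the median of all genes moved down. Without a filter 1 member, *Eif4ebp1*, had a lower interaction, and the cause was not tested. Leaving out 1 library gave 4 to 10 higher members in the knockdown without IFN-β and 5 to 15 with it.

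With a block of library codes, whose runs the labels do not tie to animals or days, 11 members were higher and 5 lower in the knockdown without IFN-β, 14 and 5 with it, 6 and 25 with IFN-β in shControl and 4 and 25 in sh*Ppargc1b* cells, and none in the interaction. The shares of all genes called under the block were 14.2% and 13.4%, 13.3% and 15.1%, 25.0% and 26.3%, 22.8% and 23.2%, and 0.472% and 1.86%. No count moved by over 1.5 times under the block. The lowest members, such as *Eif4ebp3* with 26 to 57 counts, give wide errors.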
